A study of Homo sapiens with 8 samples.

Results

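HP1b and HP1a peaks were examined over the HOX genes of MCF10A, an established, non-tumorigenic cell line from human breast epithelium. All protein-coding genes whose symbol is HOX, a letter from A to D and digits were taken, which gave 39 of the 19974 protein-coding genes on chromosomes 1 to 22 and X. They comprised 11 HOXA, 10 HOXB, 9 HOXC and 9 HOXD genes in 4 clusters. The data were broad peak lists from ChIP-seq of 8 libraries in 4 groups of 2. The groups were HP1b ChIP in HP1a-knockdown cells, HP1b ChIP in wild-type cells, HP1a ChIP in HP1b-knockdown cells and HP1a ChIP in wild-type cells, none of them treated per the labels. Each knockdown thus targeted the paralog that was not precipitated, and both knockdowns were set against wild-type cells of the same line. How the knockdowns were made, how deep they were and whether they were clones or pools is not stated. Libraries of a group are not stated to come from separate cultures, so p-values measure the spread between these libraries, which may be technical. Peak lists give neither expression nor cell mixture, so the labelled cell type could not be checked against markers.

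HOX genes encode homeodomain transcription factors that give cells their position along the body axis, and their order along each cluster follows the order in which they are used from head to tail. In differentiated cells the silent parts of HOX clusters are classically held by Polycomb proteins and histone H3 lysine 27 methylation. HP1 proteins bind methylated lysine 9 of histone H3, the mark of another kind of repressed chromatin, over repeats and silenced gene families. HP1a (HP1 alpha) is encoded by CBX5 and HP1b (HP1 beta) by CBX1.

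The HP1b lists held 159536 and 225991 peaks in HP1a-knockdown cells and 239563 and 240090 in wild-type cells. The HP1a lists held 19638 and 19092 peaks in HP1b-knockdown cells and 134058 and 115564 in wild-type cells. Peaks covered 3.91 and 5.44% of the examined genome for HP1b in HP1a-knockdown cells, against 5.22 and 5.18% in wild-type cells, and 0.326 and 0.320% for HP1a in HP1b-knockdown cells, against 2.31 and 1.995% in wild-type cells. The lists hold no read counts, so depth is unknown and no counting interval could be set. A gene without a peak is one at which no peak was listed, which does not show that the protein was absent. Peak numbers in the list of wild-type HP1b replicate 1 skip 1 number across HOXB1 to HOXB3 and 1 across HOXC12 and HOXC13, and any peak there was not analysed here.

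No HOX promoter for which a sequence was at hand held a peak. RefSeq promoter sequences (GRCh38.p14) matched 20 of the 39 HOX genes, and the 250 bases before the start that RefSeq's table gives were used. HOXC4 and HOXC5 share 1 of these stretches, which leaves 19 distinct ones, and those of HOXD13 and HOXD3 lie inside the gene bounds used here. The CG dinucleotide, spelled C then G and read the same on both strands, was counted because CG-dense promoters are usual at developmental genes. It occurred in 100% of the 20 HOX promoters and in 96.9% of 15812 protein-coding promoters of the same length. Its median number was 20.5 in HOX promoters and 17 in all promoters, and the median ratio of observed to expected CG was 0.888 and 0.737. Sequences are shown for HOXA4, HOXA11 and HOXA13, which carried HP1b peaks in both wild-type libraries and in neither HP1a-knockdown library. All lie on the minus strand, at chr7:27130758-27131007 for HOXA4, chr7:27185233-27185482 for HOXA11 and chr7:27200092-27200341 for HOXA13, and are written 5′ to 3′ with each CG in capitals.
HOXA4: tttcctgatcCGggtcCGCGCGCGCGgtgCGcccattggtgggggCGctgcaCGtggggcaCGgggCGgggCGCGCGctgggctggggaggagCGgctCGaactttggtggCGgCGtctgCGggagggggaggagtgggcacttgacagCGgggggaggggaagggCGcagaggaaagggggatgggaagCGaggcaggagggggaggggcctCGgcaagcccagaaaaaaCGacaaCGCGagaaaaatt
HOXA11: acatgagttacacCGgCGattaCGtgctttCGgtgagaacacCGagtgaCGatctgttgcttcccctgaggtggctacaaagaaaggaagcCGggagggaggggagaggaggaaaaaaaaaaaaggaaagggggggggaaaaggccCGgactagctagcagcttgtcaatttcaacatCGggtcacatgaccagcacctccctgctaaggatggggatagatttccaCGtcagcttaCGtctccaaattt
HOXA13: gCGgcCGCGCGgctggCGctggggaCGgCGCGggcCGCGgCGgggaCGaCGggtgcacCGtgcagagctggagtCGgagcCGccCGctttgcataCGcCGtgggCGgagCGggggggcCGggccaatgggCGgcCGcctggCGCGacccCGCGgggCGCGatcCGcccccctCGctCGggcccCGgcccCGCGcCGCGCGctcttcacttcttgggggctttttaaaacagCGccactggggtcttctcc
The HOXA4 sequence held 26 CG, that of HOXA11 11 and that of HOXA13 40. HOXA3 and HOXC4 also carried HP1b peaks in both wild-type libraries and in neither HP1a-knockdown library. Their promoters, with 11 and 14 CG, are not shown. Wild-type HP1b peaks inside the genes lay 1234 and 1215 bases from the start of HOXA4, 3336 and 1031 bases from that of HOXA11, and 1365 and 1762 bases from that of HOXA13. At HOXA11 a replicate 1 peak outside the gene, 2347 bases upstream, lay nearer to the start. With 0 of 20 HOX promoters met in each of the 8 libraries, the share over all promoters was 1.65 and 3.17% for HP1b in HP1a-knockdown cells, 2.96 and 3.85% for HP1b in wild-type cells, 0.335 and 0.348% for HP1a in HP1b-knockdown cells and 1.75 and 1.28% for HP1a in wild-type cells. Peaks over promoters were thus rare throughout the genome, and at these shares 20 promoters without a peak do not set HOX promoters apart.

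The HOXA and HOXC clusters had lower peak coverage than the 100 kb on either side of them in 8 of 8 libraries. Each cluster was taken from its first to its last HOX gene, called the core here. On GRCh38.p14 the HOXA core spans 107 kb of chromosome 7, HOXB chr17:48528526-48728750 (200 kb), HOXC chr12:53938831-54056030 (117 kb) and HOXD chr2:176087487-176190907 (103 kb). In the HOXA core, HP1b peaks covered 0 and 0.360% of bases in HP1a-knockdown cells and 4.59 and 2.72% in wild-type cells, while HP1a peaks covered 0.225 and 0% in HP1b-knockdown cells and 2.13 and 0% in wild-type cells. The HOXA flanks were at 4.09 and 7.53% for HP1b in HP1a-knockdown cells, 7.89 and 7.15% for HP1b in wild-type cells, 0.324 and 0.268% for HP1a in HP1b-knockdown cells and 2.16 and 1.87% for HP1a in wild-type cells. The core lay below the pooled flanks in every library, by the most for HP1b in HP1a-knockdown replicate 2 (-7.17 points). Against 1 flank alone this did not hold in every library. For HP1a in wild-type replicate 1 the HOXA core (2.13%) lay above its lower-coordinate flank (0.889%). In the same library the HOXC core (1.87%) lay above its higher-coordinate flank (0.765%). Taking the core minus the flanks, HOXA lay 2.66 percentage points lower (mean difference -2.66 ± 2.56, SD over 8 libraries; exact sign-flip test over libraries, two-sided, p = 0.00781, the smallest this test can give; adjusted over the 4 clusters 0.0156).

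The HOXC core stood at 0 and 1.06% for HP1b in HP1a-knockdown cells, 3.71 and 3.44% for HP1b in wild-type cells, 0 and 0% for HP1a in HP1b-knockdown cells and 1.87 and 0% for HP1a in wild-type cells. Its mean difference from the flanks was -1.15 ± 0.935 points (SD, n = 8 libraries; exact sign-flip p = 0.00781, adjusted 0.0156). HOXB was lower in 7 of 8 libraries, by a mean difference of -1.01 ± 1.40 points (exact sign-flip p = 0.0312, adjusted 0.0417). In HOXD the core was lower than the flanks in 3 of 8 libraries, and the mean difference of -0.398 ± 1.82 points did not pass (exact sign-flip p = 0.656). These libraries are 4 conditions of 2 and not replicates of 1 condition. The HOXA and HOXC calls ended when peaks needed a −log10 p of 4 or more (adjusted p 0.125 for HOXA and 0.521 for HOXC), when equal numbers of top peaks were taken from the lists (0.0625 and 0.3333) and with flanks of 50 kb (0.167 and 0.0938). The HOXB call ended or reversed in 10 of 12 alternatives, with 0.0310 points and an adjusted p of 0.813 when a −log10 p of 4 or more was needed, an adjusted p of 0.688 with equal numbers of top peaks and of 0.414 with flanks of 200 kb, and up to 0.0833 in 7 of 8 fits that left out 1 library.

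**Figure D1:**
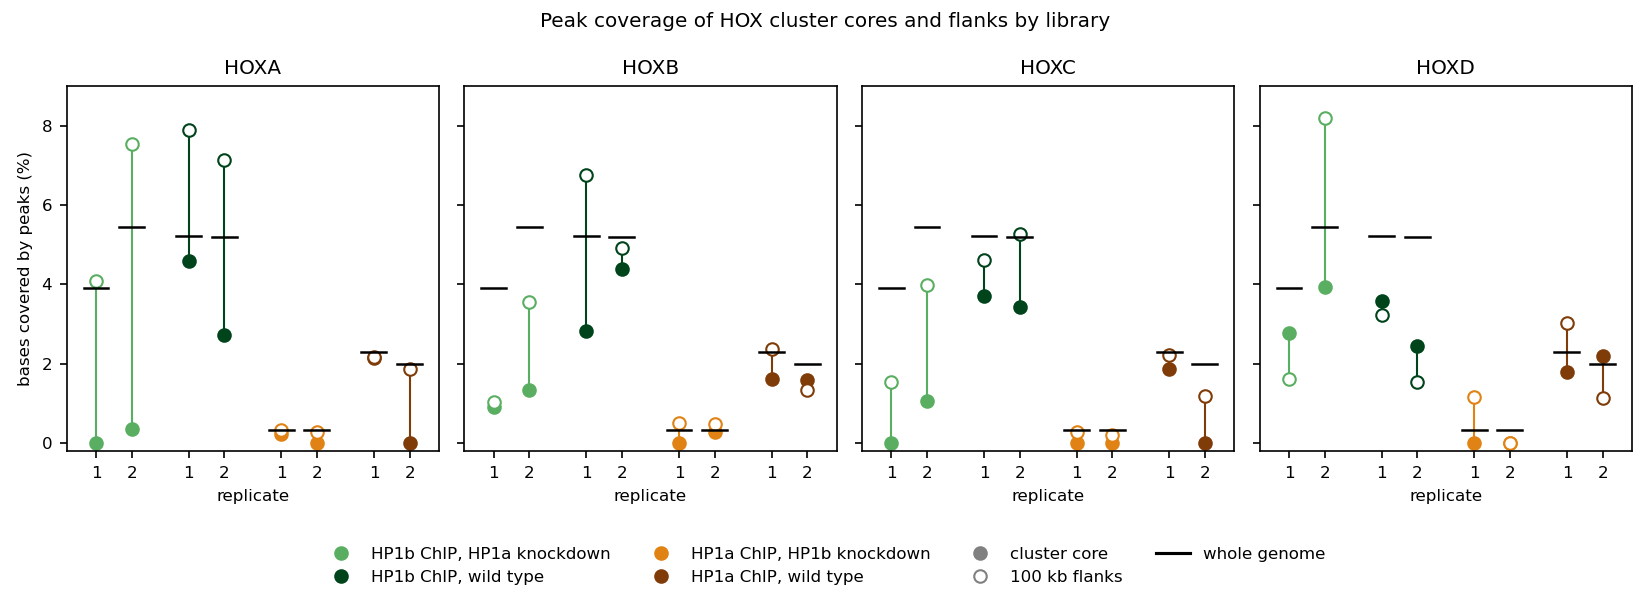
Percentage of bases covered by peaks (vertical axis) in each library, by replicate (horizontal axis), for the 4 HOX cluster cores (filled points), their 100 kb flanks (open points) and the whole genome (black bars). In HOXA and HOXC every filled point lies below its open point, with the HOXA core at 0 and 0.360% for HP1b in HP1a-knockdown cells.

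Against the whole genome, HOXA, HOXB and HOXC cores were less covered in 8 of 8 libraries each and the HOXD core in 7 of 8. The genome's share is a mean, and among all 100 kb bins the cores ran from percentile 4.04 to 68.3, above the middle bin in 8 of 32 pairs of core and library. In the HP1b-knockdown lists 59.6 and 60.95% of these bins were at 0, so a core at 0 there is common. The 4 cores together, 528 kb, had 0.227 and 0.292 times the genome's covered share for HP1b in HP1a-knockdown cells and 0.675 and 0.667 times for HP1b in wild-type cells. For HP1a the same ratio was 0.140 and 0.323 in HP1b-knockdown cells and 0.784 and 0.520 in wild-type cells. The exception was HOXD with HP1a in wild-type replicate 2, at 1.10 times the genome. Clustered protocadherin genes on chromosome 5, taken as another gene cluster, lay above the genome in 8 of 8 libraries, with 2.89 to 7.25 times its covered share. Type I and type II keratin clusters were below the genome in 5 and 3 of 8 libraries. With their flanks the HOX windows were not extreme: among 300 kb bins with a peak in any library their percentiles ran from 12.1 (HOXD, HP1b in wild-type replicate 2) to 89.4 (HOXD, HP1a in HP1b-knockdown replicate 1), against 95.9 to 98.3 for the protocadherin window.

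**Figure D2:**
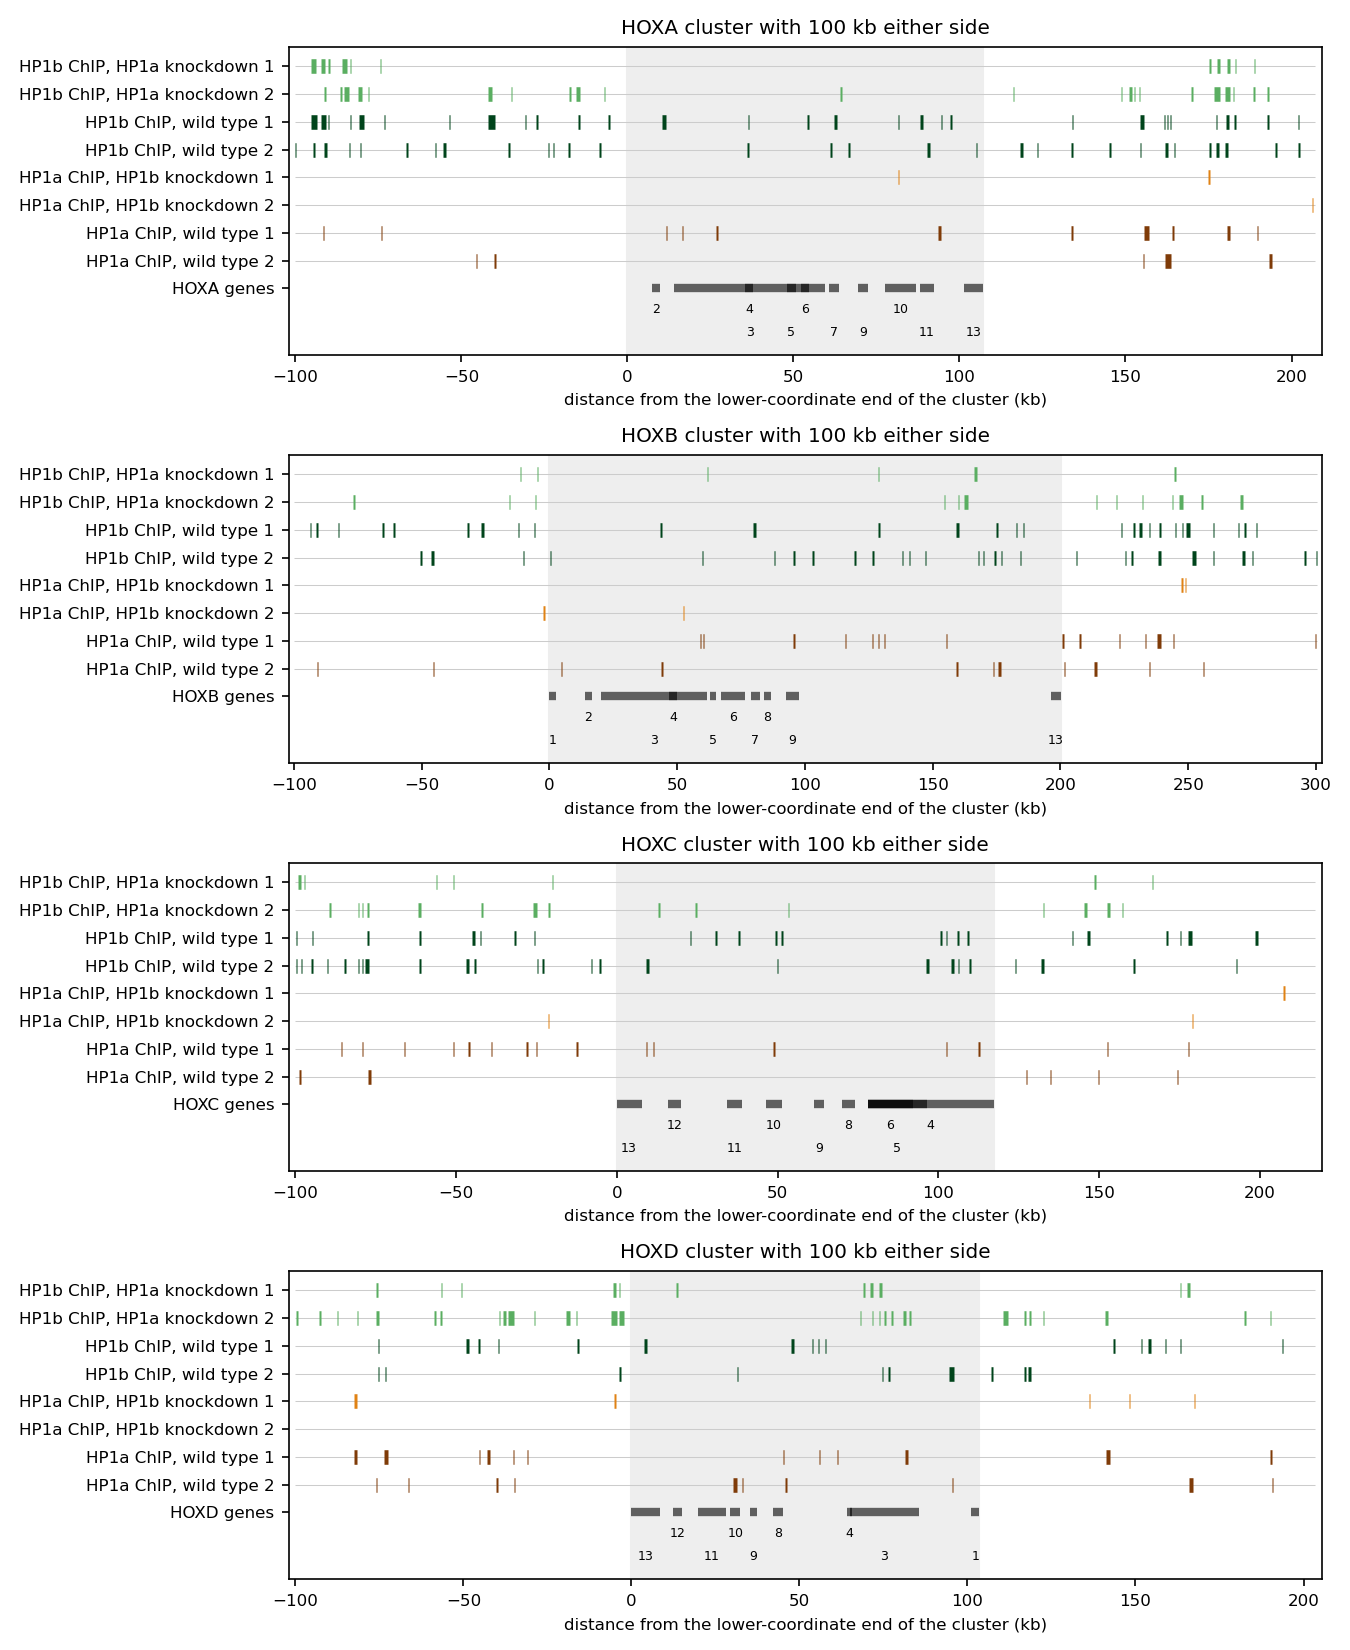
Peaks of the 8 libraries (rows; each bar is 1 peak, drawn to scale) along the 4 HOX clusters with 100 kb either side, by distance in kb from the lower-coordinate end of the cluster (grey area), with the bodies of the HOX genes shown and their numbers below. HP1b peaks of HP1a-knockdown cells number 0 and 1 inside HOXA, against 9 and 5 in wild-type cells. The stretch without a peak is not bounded by the cluster. In HP1a-knockdown replicate 1 no HP1b peak lies between -60 and 160 kb, which takes in parts of both flanks.

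Knockdown of HP1a went with a smaller share of HP1b peak bases in the HOXB window, while the HOXA, HOXC and HOXD windows did not pass the test. A window is the cluster with 100 kb either side, and relative coverage is its bases under peaks for each Mb that the library's peaks covered in total. The HOXB window was covered at 0.979 and 2.45% in HP1a-knockdown cells, against 4.79 and 4.65% in wild-type cells. On the log2 scale relative coverage fell by 1.01 (log2 -1.01, SE 0.29, limma adjusted p = 0.0151, n = 2 each), against a median of -0.11 over all bins. This made 1 of 4 windows called lower and 0 of 4 higher, beside 11.4% of 300 kb bins lower and 6.7% higher by the same rule. The fall was not particular to HOXB. The type I keratin window (log2 -1.10, limma adjusted p = 0.000499) and the type II keratin window (log2 -0.95, adjusted p = 0.00611) were also lower. The protocadherin window was higher (log2 0.69, limma adjusted p = 0.00675). The HOXC window was covered at 0.964 and 2.91% in HP1a-knockdown cells and 4.28 and 4.59% in wild-type cells (log2 -0.80, SE 0.30, limma adjusted p = 0.0669). HOXA stood at 2.66 and 5.03% in HP1a-knockdown cells and 6.74 and 5.60% in wild-type cells (log2 -0.44, SE 0.27, limma adjusted p = 0.290). HOXD was at 2.003 and 6.75% in HP1a-knockdown cells and 3.36 and 1.85% in wild-type cells (log2 0.51, SE 0.32, limma adjusted p = 0.304), and here the groups overlapped.

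In unscaled coverage both HP1a-knockdown libraries lay below both wild-type libraries in 3 of 4 windows, where 40.7% of bins did so, and above both in 0 of 4 (14.9% of bins). An exact permutation test of 2 against 2 libraries cannot go below 0.3333. The HOXB call was lost without wild-type replicate 1 or 2 (adjusted p 0.177 and 0.193), with all 8 libraries in 1 fit, without the filter, without scaling and when peaks needed a −log10 q of 2 or more, and with a −log10 p of 4 or more the log2 change was 0.0162. When the cores were fitted without flanks, a setting added after the data were seen, HOXA (log2 -0.84, limma adjusted p = 0.0109) and HOXC (log2 -0.78, adjusted p = 0.0203) passed and HOXB did not (log2 -0.73, adjusted p = 0.0634).

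In HP1b-knockdown cells little of the genome was under HP1a peaks, and no HOX window passed the test for its share of them. HP1a peaks covered 0.290 and 0.175% of the HOXA window in HP1b-knockdown cells, against 2.15 and 1.22% in wild-type cells. In the HOXB window they covered 0.252 and 0.376% in HP1b-knockdown cells and 1.99 and 1.47% in wild-type cells. The HOXC window had 0.175 and 0.135% in HP1b-knockdown cells and 2.09 and 0.751% in wild-type cells, and the HOXD window 0.770 and 0% in HP1b-knockdown cells and 2.60 and 1.495% in wild-type cells. All 4 windows were lower in both HP1b-knockdown libraries than in either wild-type library before scaling, as were 92.5% of bins, and 0 were higher in both (0.704% of bins). Relative coverage gave log2 changes of -0.08 (SE 0.52) for HOXA, 0.21 (SE 0.41) for HOXB, -0.23 (SE 0.59) for HOXC and -0.51 (SE 1.17) for HOXD, against a median of -0.51 over all bins. By limma 0 of 4 windows passed and 0 had an unadjusted p under 0.05, beside 7.67% of bins lower and 2.24% higher. The 2 HP1b-knockdown libraries held 10 and 6 peaks in the 4 windows together, so a few peaks set these values, and without scaling 4 of 4 windows were called lower.

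In wild-type cells, HP1b peaks covered 3 of 4 HOX windows more than HP1a peaks did, and no window passed once the longer HP1b lists were scaled. The HOXA window was covered at 6.17 ± 0.802% by HP1b and 1.69 ± 0.660% by HP1a (SD, n = 2 each). For HOXB the shares were 4.72 ± 0.101% for HP1b and 1.73 ± 0.362% for HP1a, and for HOXC 4.43 ± 0.214% for HP1b and 1.42 ± 0.946% for HP1a. Both HP1b libraries lay above both HP1a libraries in these 3 windows, as in 92% of bins, and below both in 0 windows (0.243% of bins). In HOXD the values overlapped, at 2.60 ± 1.06% for HP1b and 2.05 ± 0.780% for HP1a. Of the relative coverages none passed, with log2 differences of 0.49 (SE 0.27) for HOXA, 0.15 (SE 0.25) for HOXB, 0.36 (SE 0.32) for HOXC and -0.64 (SE 0.31) for HOXD. By limma this was 0 of 4 windows, with 0 at an unadjusted p under 0.05, beside 0.455% of bins higher and 1.33% lower.

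The effects of the 2 knockdowns, HP1b knockdown on HP1a minus HP1a knockdown on HP1b, did not differ past the threshold in any window. The difference was 1.23 on the log2 scale for HOXB (SE 0.52, limma interaction, adjusted p = 0.262), 0.36 for HOXA, 0.58 for HOXC and -1.02 for HOXD. Of 9465 bins, 0 passed this test. An unadjusted p under 0.05 was found at 1700 features, bins and gene cluster windows together, among them 1 HOX window, HOXB.

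**Figure D3:**
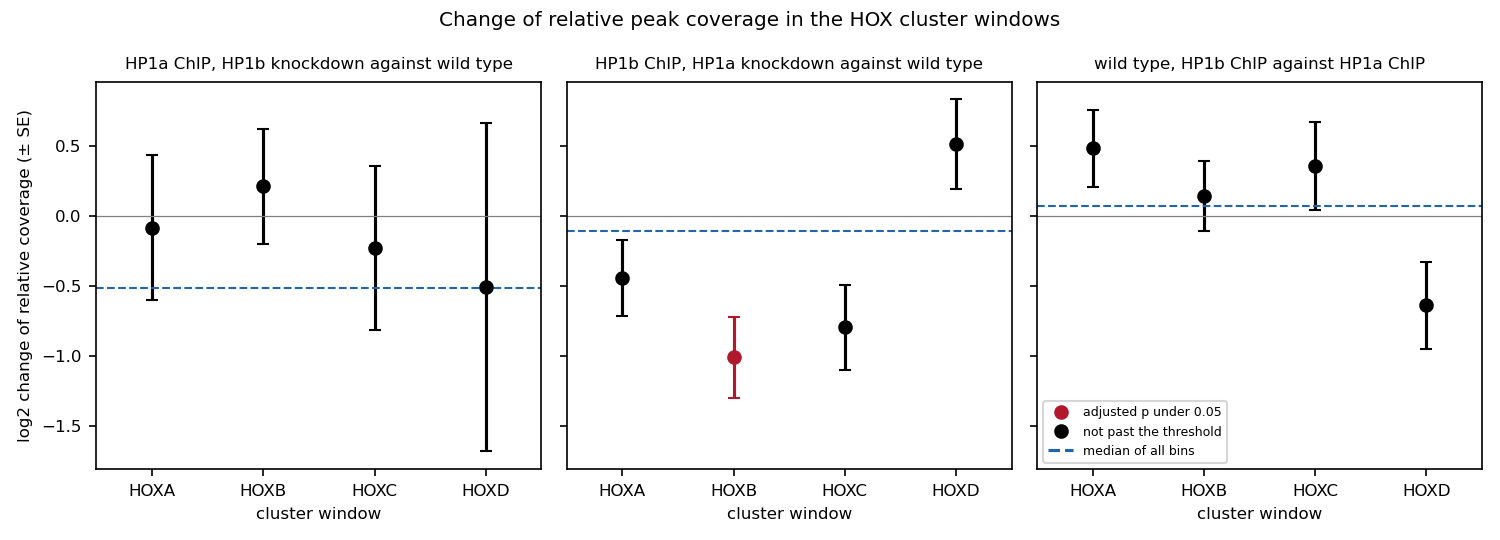
Log2 change of relative peak coverage (vertical axis, points with SE) in the 4 HOX windows (horizontal axis) for each comparison, with 2 libraries a group; the dashed line is the median over all 300 kb bins and red marks a limma adjusted p under 0.05. HOXB in the HP1b ChIP comparison, at -1.01, is the 1 point past the threshold.

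Few HOX genes carried a peak in or within 1 kb of the gene body. Of 39 genes, 4 and 3 did so for HP1b in HP1a-knockdown cells and 16 and 14 for HP1b in wild-type cells. For HP1a, 1 and 1 did so in HP1b-knockdown cells and 8 and 4 in wild-type cells. As percentages these were 10.3 and 7.69% (HP1b, HP1a knockdown), 41.0 and 35.9% (HP1b, wild type), 2.56 and 2.56% (HP1a, HP1b knockdown) and 20.5 and 10.3% (HP1a, wild type). Over all protein-coding genes HP1b peaks met 42.7 and 58.4% in HP1a-knockdown cells and 64.2 and 67.0% in wild-type cells, and HP1a peaks met 20.1 and 18.3% in HP1b-knockdown cells and 54.2 and 48.4% in wild-type cells. HOX genes are short, with a median length of 3.79 kb against 24.2 kb over all genes. Among genes of at most 10 kb, peaks of HP1b met 6.06 and 6.06% of 33 HOX genes and 13.8 and 25.1% of 5625 other genes in HP1a-knockdown cells. In wild-type cells HP1b peaks met 36.4 and 27.3% of these HOX genes and 29.2 and 31.8% of the other short genes. For HP1a they were 3.03 and 0% of short HOX genes and 4.25 and 3.68% of other short genes in HP1b-knockdown cells. In wild-type cells HP1a peaks met 12.1 and 9.09% of short HOX genes and 17.4 and 14.0% of other short genes. These shares carry no test.

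HOX genes of all 3 position classes carried peaks. Of 8 anterior genes (groups 1 to 3, used in head and neck), HP1b peaks met 2 and 2 in HP1a-knockdown cells and 4 and 4 in wild-type cells. Of 15 central genes (groups 4 to 8) they met 1 and 1 in HP1a-knockdown cells and 5 and 5 in wild-type cells. Of 16 posterior genes (groups 9 to 13, used in the lower trunk and limbs) they met 1 and 0 in HP1a-knockdown cells and 7 and 5 in wild-type cells. HP1a peaks met at most 1 gene of each class in HP1b-knockdown cells, and 3 and 1 anterior, 2 and 1 central and 3 and 2 posterior genes in wild-type cells. No peak was listed in any library at 15 genes, which included the central genes HOXA5, HOXB4, HOXB8, HOXC6, HOXC8 and HOXD4 and the posterior genes HOXA9, HOXC9, HOXC12, HOXC13, HOXD9 and HOXD11. Another 9 genes had a peak in 1 library, and 0 had one in all 8. HOXB3 had peaks in 6 libraries and HOXD3 in 5, the most of any HOX gene.

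**Figure D4:**
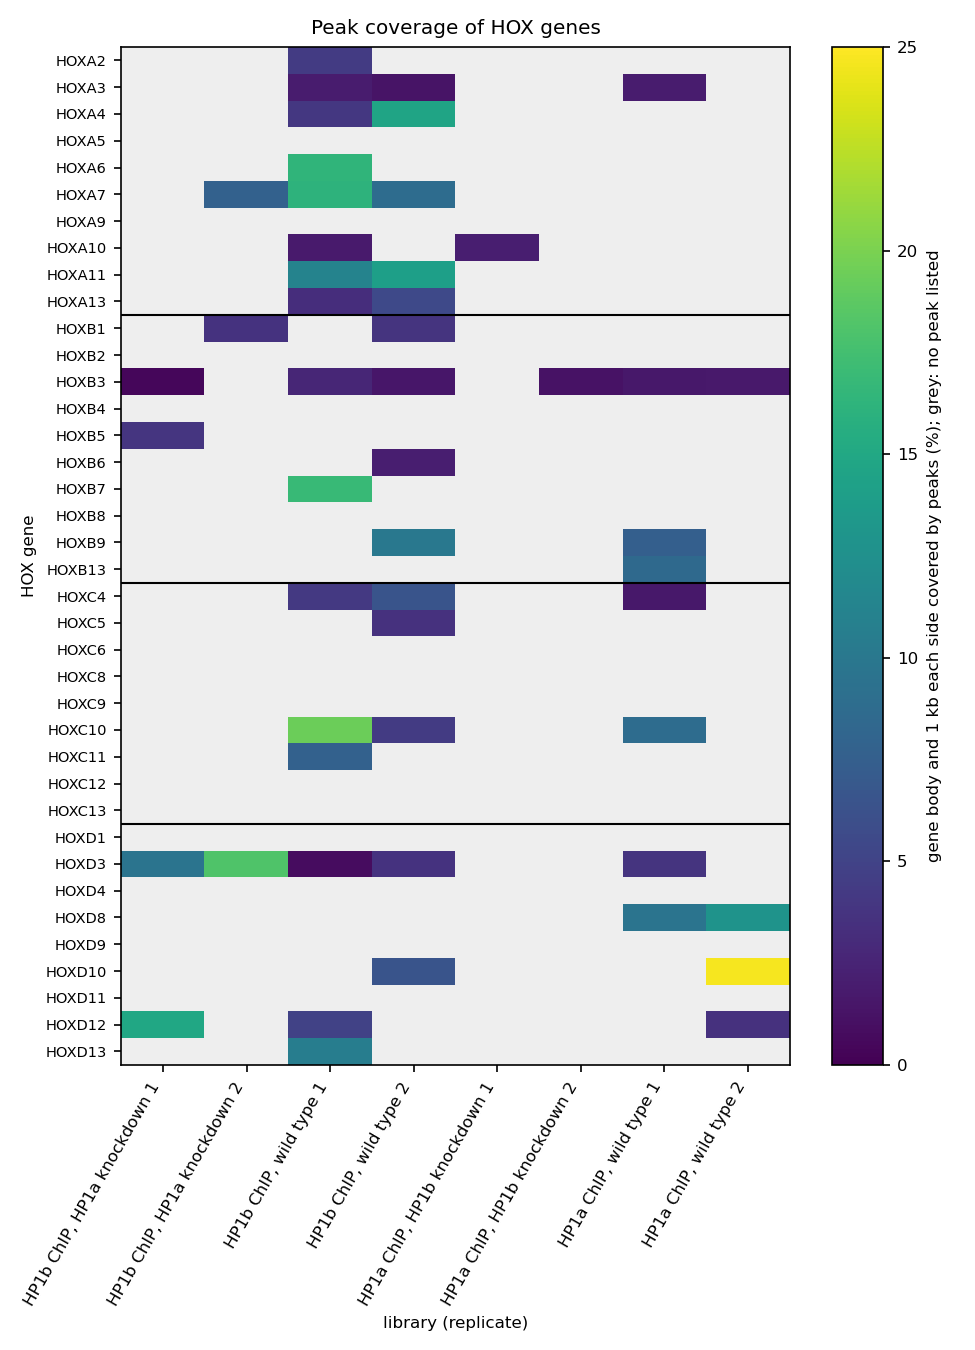
Percentage of each HOX gene, with 1 kb on each side, covered by peaks (colour scale) for HOX genes (rows, by cluster) in the 8 libraries (columns); grey means that no peak was listed. The 2 columns of HP1b in HP1a-knockdown cells hold 4 and 3 coloured cells, against 16 and 14 for HP1b in wild-type cells.

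Among anterior genes, HOXD3 was the 1 HOX gene with HP1b peaks in all 4 HP1b libraries. Its HP1b coverage was 9.58 and 18.1% in HP1a-knockdown cells, against 0.789 and 3.69% in wild-type cells. HP1a peaks covered 0 and 0% of it in HP1b-knockdown cells and 3.75 and 0% in wild-type cells. The HP1b increase had a log2 of 2.18 (SE 0.70) and did not pass (limma adjusted p = 0.159). HOXA3, which patterns pharyngeal tissue in mice, had HP1b coverage of 0 and 0% in HP1a-knockdown cells and 1.87 and 1.30% in wild-type cells, and HP1a coverage of 0 and 0% in HP1b-knockdown cells and 1.86 and 0% in wild-type cells. HOXB3 was covered by HP1b at 0.401 and 0% in HP1a-knockdown cells and 2.67 and 1.47% in wild-type cells. By HP1a it was covered at 0 and 1.26% in HP1b-knockdown cells and 1.63 and 1.73% in wild-type cells. HOXA3 and HOXB3 are long for HOX genes and their bodies overlap other HOX genes, HOXA4 to HOXA6 and HOXB4.

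Of the central genes, HOXC4 had the highest number of wild-type HP1b peaks, 4 in each library. HP1b peaks covered 0 and 0% of it in HP1a-knockdown cells and 4.16 and 6.49% in wild-type cells, and HP1a peaks 0 and 0% in HP1b-knockdown cells and 1.61 and 0% in wild-type cells. Its body overlaps HOXC5 and HOXC6. HOXA4 had HP1b coverage of 0 and 0% in HP1a-knockdown cells and 4.04 and 14.6% in wild-type cells, and no HP1a peak. HOXA7 stood at 0 and 7.78% for HP1b in HP1a-knockdown cells and 16.1 and 8.85% in wild-type cells, also with no HP1a peak. HOXD8 had HP1a peaks only: 0 and 0% in HP1b-knockdown cells and 9.60 and 12.8% in wild-type cells, with 0% in all 4 HP1b libraries.

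Posterior genes with peaks in both libraries of a group were HOXA11, HOXA13 and HOXC10. HOXA11, which acts in limb and uterus, had HP1b coverage of 0 and 0% in HP1a-knockdown cells and 11.2 and 14.1% in wild-type cells. HOXA13, whose mutation affects hands, feet and the genital tract, had 0 and 0% in HP1a-knockdown cells and 3.31 and 5.51% in wild-type cells. Neither had an HP1a peak. HOXC10, a gene of the lumbar spinal cord in mice, was covered by HP1b at 0 and 0% in HP1a-knockdown cells and 19.4 and 4.37% in wild-type cells. HP1a peaks covered 0 and 0% of HOXC10 in HP1b-knockdown cells and 8.83 and 0% in wild-type cells. The highest value of any HOX gene was that of HOXD10 with HP1a in wild-type replicate 2, 24.7%, and replicate 1 was at 0%.

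In HP1a-knockdown cells no HP1b peak was listed at 6 of the 9 HOX genes that had HP1b peaks in both wild-type libraries. A gene was called lost when neither knockdown library had a peak at it, gained in the opposite case, and kept when all 4 libraries had one. The 6 lost genes were HOXA3, HOXA4, HOXA11, HOXA13, HOXC4 and HOXC10, where over all genes 14.2% of 11100 were lost. Shares over all genes, here and below, were not matched for gene length. The median length was 3.79 kb for HOX genes and 24.2 kb over all genes, and the part of length in these differences was not tested. HOXD3 was kept (63.6% of all genes were), and HOXA7 and HOXB3 had a peak in 1 HP1a-knockdown library each. Of 18 HOX genes without a wild-type HP1b peak 0 were gained, beside 4.21% of all genes. HOXA3 and HOXA4 share 1 of these peak regions, so the 6 genes are not 6 separate losses, and the genes of HOXA also share a cluster. By limma 0 of 11 fitted HOX genes passed, as did 0% of 13101 genes, and 6 of the 11 had an unadjusted p under 0.05 (3247 of all genes did). These were HOXC4, HOXA11, HOXA3, HOXA13 and HOXC10, all lower in HP1a-knockdown cells, and HOXD3, which was higher. The lower genes are among the lost ones, with 0% in both HP1a-knockdown libraries. They were fitted only through their wild-type peaks and could come out only lower, so their shared direction is no result of the test. The smallest adjusted p among them was 0.147. With equal numbers of top peaks from the lists 3 HOX genes were lost, and with a −log10 p of 4 or more 0 were.

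In HP1b-knockdown cells no HP1a peak was listed at HOXD8, 1 of the 2 HOX genes with HP1a peaks in both wild-type libraries, where over all genes the share was 47%. HOXB3 had a peak in 1 HP1b-knockdown library, and 0 of 29 HOX genes were gained (0.728% of all genes). HOXD8 passed by limma (adjusted p = 0.0312), 1 of 2 fitted HOX genes, beside 26.9% of fitted genes lower and 1.7% higher. With both HP1b-knockdown values at 0, HOXD8 was fitted only through its wild-type peaks and could come out only lower. Its direction is therefore no result of the test. The fitted size depends on the pseudocount and no fold is given. The call ended in 5 of the 8 alternatives in which HOXD8 could be fitted, among them a pseudocount multiplied by 4 (adjusted p 0.0691) and leaving out HP1b-knockdown replicate 1 or 2 (adjusted p 0.114 and 0.118). The remaining settings of 14 alternatives gave no call, because HOXD8 could not be fitted in them. With the gene body alone this was because 1 of its peaks lies beyond its end.

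Between paralogs in wild-type cells, HP1b peaks in both libraries with no HP1a peak were found at 4 of 29 HOX genes without HP1a, HOXA4, HOXA7, HOXA11 and HOXA13, where over all genes 17.9% were. All 4 lie in the HOXA cluster. HOXD8 was the opposite case, HP1a in both libraries and HP1b in neither, 1 of 2 HOX genes where the share over all genes was 1.47%. By limma 0 of 13 fitted HOX genes passed, as did 0% of 13090 genes. An unadjusted p under 0.05 was found at 4 HOX genes (1640 of all genes), HOXD8 with HP1b lower than HP1a and HOXA7, HOXA11 and HOXA13 with HP1b higher. Each of these 4 had 0% in both wild-type libraries of 1 paralog and was fitted only through the other, which fixed its direction. The knockdown comparisons share the wild-type libraries with this one.

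Where replicate libraries both met a HOX gene, their peaks often lay at different places. Both libraries of wild-type HP1b met 9 HOX genes, and at 4 of them, HOXA3, HOXA4, HOXC4 and HOXC10, the peaks overlapped. At HOXA13 the nearest peaks were 141 bases apart, at HOXA7 721 bases and at HOXA11 1450 bases. At HOXD8 the HP1a peaks of wild-type cells, chr2:176132456-176132934 in replicate 1 and chr2:176133057-176133697 in replicate 2, were 122 bases apart, the second beyond the end of the gene. At HOXB3 they were 14559 bases apart. In HP1a-knockdown cells HOXD3 was the 1 HOX gene met by both HP1b libraries, and there the peaks overlapped.

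Regions found in both libraries of a group (overlap of at least 1 base) numbered 14 in the 4 windows for HP1b in HP1a-knockdown cells, 25 for HP1b in wild-type cells, 0 for HP1a in HP1b-knockdown cells and 3 for HP1a in wild-type cells. Inside the cores lay 2 of those of HP1b in HP1a-knockdown cells, 4 of those of HP1b in wild-type cells and 0 of those of HP1a. Both HP1a-knockdown core regions were in HOXD3, at chr2:176158529-176159497 and chr2:176161071-176162142. The 4 wild-type HP1b core regions lay in HOXA3 and HOXA4 (chr7:27128924-27129542), in HOXC10 (chr12:53988095-53988905), in HOXC4 (chr12:54044562-54045159) and 5.24 kb from HOXD1 (chr2:176182069-176183428). The first 3 of these were met by no peak of the other 6 libraries, and the fourth by 1 HP1a wild-type library. The HOXA3 and HOXA4 region had the authors' fold enrichment of 2.93 and 2.78 in wild-type replicates 1 and 2, and no peak in the 4 windows of any library exceeded 4.21. Of the peaks in the windows, 40.0 and 15.9% were met by the other replicate for HP1b in HP1a-knockdown cells and 22.7 and 24.5% in wild-type cells. Over the whole lists these shares were 48.7 and 34.1% in HP1a-knockdown cells and 35.1 and 35.2% in wild-type cells. For HP1a they were 0 and 0% in the windows and 6.21 and 6.38% over the whole lists in HP1b-knockdown cells, and 4.69 and 8.11% in the windows and 18.4 and 21.4% over the whole lists in wild-type cells. Replicate agreement was thus lower in the HOX windows than over the whole list in all 4 groups. The 2 shares of a group count the same overlaps and are not separate observations. For HP1a in HP1b-knockdown cells the windows held 10 and 6 peaks, too few for 0% to be set against shares of 6.21 and 6.38%.

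Of the wild-type HP1a peaks in the windows, 35.9% of 64 in replicate 1 and 37.8% of 37 in replicate 2 were met by a wild-type HP1b peak. Genome-wide 50.6 and 52.9% were. HOXA had the highest shares, 60% of 15 and 80% of 5 peaks, and HOXD the lowest, 12.5% of 16 and 9.09% of 11. These shares rest on few peaks.

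The homeobox genes EVX1 and EVX2, relatives of the fly gene even-skipped that flank HOXA and HOXD, had a mean coverage over the 8 libraries of 6.42 and 7.45%, while that of HOXD3, the highest of any HOX gene, was 4.48%. EVX2, 3.52 kb from HOXD13, had HP1b coverage of 13.8 and 31.8% in HP1a-knockdown cells, against 0 and 6.22% in wild-type cells. This increase did not pass (log2 2.03, SE 0.77, limma adjusted p = 0.195). HP1a covered 7.75 and 0% of EVX2 in HP1b-knockdown cells and 0 and 0% in wild-type cells. Both replicated regions there were HP1b regions of HP1a-knockdown cells, at chr2:176081453-176083047 and chr2:176083727-176085260. EVX1, 42.7 kb from HOXA13, had HP1b coverage of 0 and 19.8% in HP1a-knockdown cells and 19.1 and 6.44% in wild-type cells, which overlap. Its HP1a coverage was 0 and 0% in HP1b-knockdown cells and 3.70 and 2.39% in wild-type cells. The log2 change was -0.58 beside a median of -1.03 over all fitted genes (limma adjusted p = 0.0308). With both knockdown values at 0, EVX1 was fitted only through its wild-type peaks and could come out only lower. These peaks, 1 in each wild-type library, lie within 1 kb of EVX1 but beyond its body. EVX1 could therefore not be fitted with the gene body alone or without either wild-type library. The call was also lost in 5 of 14 alternatives in which 0 genes were called lower, and EVX1 was not followed in the others. TTLL6, a tubulin polyglutamylase gene beside HOXB, had HP1b coverage of 1.75 and 7.07% in HP1a-knockdown cells and 10.05 and 8.002% in wild-type cells. PRAC1 and PRAC2, which lie inside HOXB beside HOXB13, had no peak in any library. SKAP1, LNPK and MTX2 in the flanks had at most 3.12% in any library. Inside HOXA the read-through gene HOXA10-HOXA9 had HP1b coverage of 0 and 0% in HP1a-knockdown cells and 1.14 and 0% in wild-type cells. The microRNA genes MIR10A, MIR10B, MIR196A1, MIR196A2 and MIR196B, which lie among the HOX genes, had 0 covered bases in 8 of 8 libraries when taken without flanks. With 1 kb on each side MIR10A had 274 covered bases for HP1a in HP1b-knockdown replicate 2. MIR196A2 then had 182 for HP1b in HP1a-knockdown replicate 2, and MIR196A1 had 450 for HP1b in wild-type replicate 2.

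Among genes of the proteins that work with or regulate HOX genes, several had a share of HP1a peak bases that fell in HP1b-knockdown cells, and no member passed in the other comparisons. These calls depend on the processing, and in 5 of 14 alternatives limma called 0 genes of the whole genome lower. They were the fits without the filter, with a pseudocount 4 times as large and with equal numbers of top peaks. The others were those with a −log10 p of 4 or more and with the replicate block. The calls also rest on both wild-type HP1a libraries. Without replicate 1 or 2 of these the median log2 over all fitted genes was -0.09 and -0.10. Genes with 0% in both HP1b-knockdown libraries could not be fitted there. TALE cofactors, the PBX, MEIS and PKNOX proteins that bind DNA with HOX proteins, were lower at 4 of 8 fitted genes (9 in all), which included PBX4, MEIS1 and MEIS2, and higher at 0, beside the 26.9 and 1.7% of all fitted genes given above. Their median log2 was -1.77 beside -1.03 over all fitted genes, and such medians depend on the pseudocount through genes listed at 0, here PBX4, MEIS1 and MEIS2. TALE genes are also long, with a median of 139 kb against 24.2 kb over all genes. The shares and medians of the lists were not matched for length. At PBX4 HP1a covered 0 and 0% in HP1b-knockdown cells and 5.33 and 2.94% in wild-type cells (limma adjusted p = 0.0322), and at MEIS2 0 and 0% in HP1b-knockdown cells and 1.59 and 1.39% in wild-type cells (adjusted p = 0.0308). Polycomb and trithorax genes were lower at 4 of 9 fitted genes (23 in all), higher at 0, with a median of -1.56. These were JARID2 and SUZ12 of Polycomb repressive complex 2 and PHC2 and PHC3 of complex 1, all with 0% in HP1b-knockdown cells. HP1a covered JARID2 at 2.68 and 1.19% and SUZ12 at 1.77 and 1.17% in wild-type cells. Other developmental homeobox genes were lower at 2 of 5 fitted genes (41 in all), EVX1 and the intestinal gene CDX1, with a median of -0.13. HP1a covered CDX1 at 0 and 0% in HP1b-knockdown cells and 9.19 and 9.74% in wild-type cells. Every gene named here as lower had 0% for HP1a in both HP1b-knockdown libraries. Such genes were fitted only through their wild-type peaks and could come out only lower, so their direction is no result of the test. Of the 3 HP1 genes 1 was fitted and did not pass.

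In the HP1b ChIP comparison of HP1a-knockdown with wild-type cells, 0 of 8 TALE, 0 of 11 Polycomb and trithorax, 0 of 19 homeobox and 0 of 2 HP1 genes passed by limma. Median log2 changes were -0.77 for TALE, -0.89 for Polycomb and trithorax, -0.57 for homeobox and -0.82 for HP1 genes, beside -0.46 over all fitted genes. The TALE gene PKNOX1 was covered by HP1b at 5.05 and 9.55% in HP1a-knockdown cells and 7.45 and 8.82% in wild-type cells. RNF2, a ubiquitin ligase of Polycomb complex 1, stood at 3.01 and 5.97% for HP1b in HP1a-knockdown cells and 7.45 and 9.15% in wild-type cells. OTX1, a head homeobox gene, had the highest mean coverage of the homeobox list, at 6.92 and 11.1% for HP1b in HP1a-knockdown cells and 19.8 and 18.8% in wild-type cells. For HP1b against HP1a in wild-type cells 0 of 8 TALE (median log2 -0.24), 0 of 14 Polycomb and trithorax (0.23), 0 of 14 homeobox (0.51) and 0 of 2 HP1 genes (0.33) passed, beside a median of 0.10 over all fitted genes. ASH1L, a trithorax-group methyltransferase gene, had the highest mean coverage of the Polycomb and trithorax list, at 6.38 and 6.89% for HP1b and 8.10 and 4.47% for HP1a in wild-type cells. The HP1 genes lie near HOX clusters, CBX5 175 kb from HOXC, CBX1 427 kb from HOXB and CBX3 879 kb from HOXA. CBX1 had HP1b coverage of 0 and 0.524% in HP1a-knockdown cells and 1.89 and 6.55% in wild-type cells. CBX5 had HP1a coverage of 0.348 and 0% in HP1b-knockdown cells and 1.13 and 0% in wild-type cells. A CBX3 peak was listed in 1 library, wild-type HP1b replicate 1.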

How the data were processed

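ChIP-seq of HP1b and HP1a in MCF10A cells was read from 8 deposited broad peak lists, 2 libraries a group. Per the labels' protocols, chromatin was cross-linked with 1.2% formaldehyde for 12 min and sequenced in 76 bp paired-end reads. MACS3, Bowtie2, SAMtools, Trimmomatic and hg38 appear in the submitters' processing notes with no stated role. Tool versions and settings, and whether an input library served as control, were not given in the sources used here. Peaks were called per library, since each deposited list belongs to 1 library. Per the file headers and values, the authors' lists give for each peak a score (10 times its −log10 q), a fold enrichment as a ratio, a −log10 p and a −log10 q. Short lists, such as that of HP1a in HP1b-knockdown cells, make absence of a peak common, and broad calling at a low threshold lets weak peaks in.

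Analysis kept peaks of chromosomes 1 to 22 and X (99.1 to 99.7% of each list), and overlapping peaks of a list were merged. Gene bounds came from RefSeq on GRCh38.p14. Covered bases were counted in the HOX clusters, their 100 kb flanks, 10087 bins of 300 kb and 19974 gene bodies with 1 kb on each side. Relative coverage was covered bases per Mb of all covered bases of the library. It was fitted as log2(value + pseudocount), the pseudocount being the 10th percentile of values above 0, with limma 3.58.1 (R 4.3.3; moderated test with variance trend) over all bins or genes together. Features needed a peak in 2 or more of the 4 libraries to be fitted, and p was adjusted by the Benjamini-Hochberg method, the threshold being 0.05. A feature at 0 in both libraries of 1 group was thus fitted only through the other group, which fixed the direction of its change. This scale understates changes of low values. Core against flanks was tested with an exact sign-flip test over 256 patterns. Covered shares are given as percent, per library or as mean ± SD.

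HOX genes with peaks in both libraries of at least 1 group were named with their values, with all protein-coding genes in the flanks, the HP1 genes and, of the other lists, members past the threshold and up to 3 with the highest mean coverage. EVX1 and EVX2 fall under both rules. HOXD10 was added after its values were seen. The members, lists and tests were chosen with earlier results of these data known. Alternatives changed the pseudocount, filter, scaling, peak threshold, number of peaks, bin and flank sizes, the libraries fitted together, a replicate block and single libraries left out, and the fit of cores without flanks was added after the data were seen. No exons, repeats or genome sequence were used here, and some members of the lists are counted but not reported here by name.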

Additional observations from a re-analysis of the deposited data

How the results depend on the processing

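Calls past the threshold were often lost. The HOXB window for HP1b was lost or reversed in 8 of 16 alternatives. Core against flanks was lost or reversed in 10 of 12 for HOXB and in 3 of 12 each for HOXA and HOXC. HOXD8 was lost in 5 of the 8 alternatives in which it could be fitted, and had no call in the rest of 14. The cause of each change below was not tested. Reads per library are unknown, so how far depth limits the HP1a lists of HP1b-knockdown cells could not be set. Core minus flanks was -1.18 (HOXA) and -1.11 (HOXC) points with 50 kb flanks, -0.312 (HOXB) and 0.377 (HOXD) with 200 kb flanks, -0.646 (HOXA), 0.0310 (HOXB) and -0.140 (HOXC) at −log10 p of at least 4, and -0.293 (HOXA), -0.0490 (HOXB) and -0.0790 (HOXC) with the same number of top peaks. Without 1 library it ranged from -1.19 to -0.586 for HOXB and from -0.620 to 0.154 for HOXD.

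Windows called lower or higher for HP1a (HP1b knockdown against wild type) numbered 4 without scaling, 2 at −log10 q of at least 2, 1 for cores without flanks and 0 to 1 without 1 library. The median over bins was -0.51 with scaling and -2.51 without. For HP1b (HP1a knockdown against wild type) 0 windows were called without the filter, without scaling, at −log10 p of at least 4, at −log10 q of at least 2 or with all 8 libraries in 1 fit, 2 for cores alone, for 50 kb or for 200 kb flanks, and 0 to 2 without 1 library. For HP1b against HP1a in wild-type cells there were 3 without scaling and 0 to 1 without 1 library.

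Window log2 changes reversed as follows. For HP1a (HP1b knockdown against wild type), HOXA was 1.08 with the same number of top peaks and 0.67 at −log10 p of at least 4, and HOXB was -2.03 without scaling, -0.70 for the core alone and -0.0560 with 200 kb flanks. Without 1 library the ranges were -0.34 to 0.17 (HOXA), -0.0368 to 0.46 (HOXB), -0.66 to 0.21 (HOXC) and -2.14 to 1.14 (HOXD), with HOXA at 0.14 without wild-type replicate 1. For HP1b (HP1a knockdown against wild type), −log10 p of at least 4 gave 0.0162 (HOXB) and 0.27 (HOXC), and −log10 q of at least 2 gave 1.39 (HOXC). For HP1b against HP1a in wild-type cells, HOXA was -0.0670 with 200 kb flanks. HOXB was -0.34 with the same number of top peaks, -0.84 at −log10 p of at least 4, -0.0822 for the core alone and -0.0901 with 50 kb flanks. HOXC was -0.75 at −log10 p of at least 4, -2.20 at −log10 q of at least 2 and -0.0665 to 0.77 without 1 library, and HOXD was 0.25 without scaling.

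Unscaled window differences reversed with the same number of top peaks for HP1a (HP1b knockdown against wild type) at 0.174 (HOXA), 0.250 (HOXB) and 0.121 (HOXD) points, and at −log10 p of at least 4 at 0.0261 (HOXA). For HP1b (HP1a knockdown against wild type), −log10 p of at least 4 gave 0.646 (HOXA), 0.127 (HOXB) and 0.217 (HOXC), and HOXD ran from -0.601 to 4.15 without 1 library. For HP1b against HP1a in wild-type cells it gave -0.203 (HOXB), -0.126 (HOXC) and -0.315 (HOXD), and HOXD was -0.504 with the same number of top peaks and -0.194 to 1.31 without 1 library.

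HOX genes past the threshold for HP1a numbered 0 without the filter, with a pseudocount 4 times as large, with the same number of top peaks, with the gene body alone and without any 1 library, and 2 with 5 kb gene flanks. For HP1b in the HP1a-knockdown comparison the count was 0 to 1 without 1 library. Lost HOX genes for HP1a numbered 0 with the same number of top peaks, at −log10 p of at least 4 or with the gene body alone, 2 with 5 kb flanks and 1 to 7 without 1 library, and gained ones 0 to 1. For HP1b in the HP1a-knockdown comparison lost genes numbered 3 with the same number of top peaks, 0 at −log10 p of at least 4 and 7 to 12 without 1 library, and gained ones 1 with 5 kb flanks and 0 to 1 without 1 library. Between paralogs, genes with HP1b alone numbered 0 with the same number of top peaks or at −log10 p of at least 4, 8 with 5 kb flanks and 4 to 10 without 1 library. Genes with HP1a alone numbered 0 under those 3 settings and with the gene body alone, and 1 to 2 without 1 library.

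Replicate numbers are not stated to pair libraries. Correlations of the replicate differences over bins were 0.02, 0.18 and -0.10 in the 3 comparisons. With a replicate block 0 HOX genes passed for HP1a (HOXD8 adjusted p 0.0853), and the counts of called HOX windows were unchanged.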
